A study of Mus musculus with 11 samples.

Results

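The ribosome biogenesis factors described here are 38 mouse genes for nucleolar and pre-rRNA processing proteins. They were listed by name, with Wdr43 and Rrp9 as their markers, and each was found on the array through the RefSeq accession of its probes. The rule uses no measured values, but the list was drawn up with earlier results of these data known. All 38 had a probe and all 38 were tested, among 25079 genes or unnamed features in all. They were covered by 50 probes, each well above background on all 11 arrays, so no member was tested only because it was bright in a single group.

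Ribosomes are assembled in the nucleolus, where RNA polymerase I transcribes a long precursor of the ribosomal RNAs. Small nucleolar RNPs of the box C/D and box H/ACA classes guide ribose methylation and pseudouridylation of that precursor, the small subunit processome folds and cleaves it, and further factors mature and export the small and large subunits. Genes of this class are known targets of the transcription factor MYC, and their transcripts are abundant in fast-growing leukaemia cells.

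The RNA came from 4 mouse lines of L-GMP cells, granulocyte-macrophage progenitors turned leukaemic by the fusion oncogene MLL-AF9, which were started from leukemic mice. Each sample was hybridised to an Agilent 1-colour array labelled with Cy3, 11 in all. Every group had the genotype Jmjd2a/b/cf/f;Rosa26::CreERT2 on the C57BL/6 background and grew in RPMI with 20% FBS and 10 ng/ml IL-3. Jmjd2a, Jmjd2b and Jmjd2c are older names of Kdm4a, Kdm4b and Kdm4c, which encode histone H3 lysine demethylases, and CreERT2 is a recombinase that 4-hydroxytamoxifen switches on. The 0 h group (n = 4) had no drug, and the 48 h (n = 4) and 96 h (n = 3) groups had 500 nM 4-hydroxytamoxifen for that time. The labels do not say which line each array held. All groups carried the floxed alleles, CreERT2 under the broadly active Rosa26 locus and MLL-AF9. Cells that lack the floxed alleles but received the drug were not analysed here, and neither were untreated cultures of the later times, so gene loss, drug and Cre activity, and time in culture cannot be told apart.

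The floxed genes were lower at both times, with log2 differences from 0 h of -1.59 and -1.20 for the brighter Kdm4a probe, -3.30 and -3.24 for Kdm4b, and -4.95 and -4.60 for Kdm4c at 48 h and 96 h. Kdm4c was well above background on 2 of 4 arrays at 48 h. The other Kdm4a probe had -0.23 at 48 h, which did not pass over all probes (limma adjusted p = 0.593), and -1.46 at 96 h, which did (0.0223). Among 6 myeloid progenitor markers 1 was higher at both times, Mpo, by 4.33 and 5.18. Among 6 neutrophil markers 1 was higher at 48 h and 3 at 96 h, led by Ltf at 6.82 and Camp at 5.70. The summed neutrophil marker signal, on the log2 scale, ran from 6.29 to 9.30 at 0 h, 7.40 to 9.25 at 48 h and 9.63 to 10.5 at 96 h. Among 5 monocyte markers Fcgr1 was lower at 48 h (-3.71, well above background on 1 of 4 arrays there), among 3 megakaryocyte markers Gp9 was higher at both times (1.07 and 1.43), and among 2 lymphoid markers Cd3e was lower at 96 h (-0.53). The erythroid marker Hbb-b1 and the B cell marker Ms4a1 were not well above background on any array. The part of these marker shifts in the values below was not tested. In RNA from whole cultures, fewer cells of a type and less RNA per cell cannot be told apart. The 0 h and 48 h arrays shared slide 1 and scan 1, and the 96 h arrays were on slide 2 and scan 2, so slide, scan and the 96 h group cannot be told apart.

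The differences of the ribosome biogenesis factors after 4-hydroxytamoxifen were small, and most of those called were lower. Values are scaled log2 signals, that is log2 of the processed spot signal minus the 75th percentile of the same array, so a difference of 1 is a doubling. At 48 h against 0 h, limma called 6 of 38 members at an adjusted p under 0.05, or 15.8%, beside 18.6% of all genes. Nop10 was higher, and Wdr43, Imp4, Rrp9, Tsr1 and Wdr12 were lower. The 5 lower members are 13.2% of the 38, beside 8.03% of all genes called lower, and the 1 higher is 2.63%, beside 10.5%. With 1 array left out, the members' share called lower was above that of all genes in 5 of 11 fits. At 96 h against 0 h, 3 of 38 were called, or 7.89%, beside 9.56% of all genes. These were Wdr43, Imp4 and Rrp9, all lower, beside 3.38% of all genes called lower and 6.18% called higher. None of the members was called higher there by limma. At an unadjusted p under 0.05, 12 members were lower and 1 higher at 96 h, or 31.6% and 2.63%, beside 10.1% and 18.4% of all genes. At 48 h 11 were lower and 4 higher by that measure, or 28.9% and 10.5%, beside 13.9% and 20.8% of all genes. With the number in the file names as a replicate block, 7 members (18.4%) were lower at 96 h and 0 higher by limma, in a fit that called 14.0% of all genes and 5.45% lower. That number equals the array's column on its slide, so this block cannot tell replicate and slide column apart. At 96 h against 48 h only Pes1 passed, as higher, which is 2.63% of the members beside 11.1% of all genes. Over all genes 5.17% were called higher and 5.95% lower there, and among the members limma called 0 lower, with 4 lower at an unadjusted p under 0.05. Among the 19638 genes above background on all arrays, as every member was, 21.4%, 10.3% and 12.7% were called in the 3 comparisons. Of these genes 1891 were lower and 2316 higher at 48 h, and 815 were lower and 1208 higher at 96 h against 0 h.

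The differences were small in size and mostly below 0. At 48 h, 29 of 38 members (76.3%) had a difference below 0, against 38.5% of all genes. Their median was -0.12 while the median of all genes was 0.12, which puts the members' median 0.24 lower. At 96 h, 28 members (73.7%) were below 0, against 38.9% of all genes, with medians of -0.15 and 0.11. Between 48 h and 96 h the medians were -0.02 and 0.03. Among genes above background on all arrays, as every member was, 40.5% lay below 0 at 48 h and 43.6% at 96 h. The medians of those genes were 0.09 and 0.05. The medians carry no test, and their size moved with the scaling. With quantile normalization the median of all genes was 0.01 at 48 h and -0.01 at 96 h, and the members' median lay 0.15 below it both times. The number of members below 0 under the 5 other scalings tried was 27 to 34 at 48 h and 27 to 37 at 96 h. The highest counts, 34 and 37, came with median scaling, which put 60.8% and 73.8% of all genes below 0. Under the other 4 scalings the share of all genes below 0 was 33.0% to 49.4% at 48 h and 35.7% to 51.0% at 96 h.

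The members' differences ran from -0.59 (Wdr12) to 0.45 (Nop10) at 48 h, or from 66.3% to 137% of the 0 h signal. At 96 h they ran from -0.64 (Fbl) to 0.39 (Nolc1), or from 64.0% to 131%. No member differed by a log2 of 1 in any comparison, whereas 5.51% of all genes did at 48 h and 6.49% at 96 h, both relative to 0 h, and 5.12% did between the treated times. The median absolute difference was 0.20 for the members and 0.29 for all genes at 48 h, 0.22 and 0.27 at 96 h, and 0.15 and 0.26 between the treated times. All genes include dim ones, whereas every member was above background on all arrays. Among the 19638 genes above background on all arrays, 3.45%, 2.71% and 2.78% differed by a log2 of 1 in the 3 comparisons. Their median absolute differences were 0.27, 0.23 and 0.23. The standard errors of the members' differences ran from 0.0716 to 0.191, so the small differences were not all beyond the error.

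**Figure D1:**
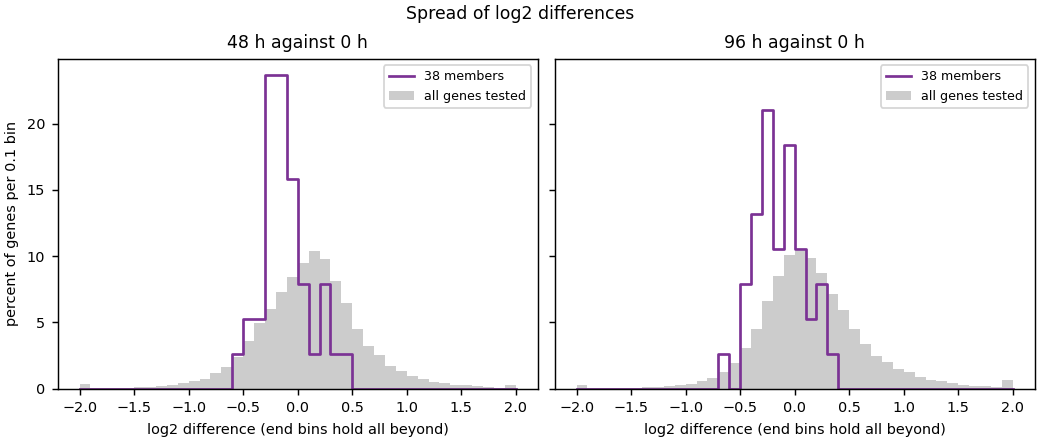
Percent of genes per 0.1 of log2 difference, for the 38 ribosome biogenesis factors (line) and all 25079 genes tested (grey), at 48 h (left) and 96 h (right) against 0 h. The 38 genes lie between -0.64 and 0.45, with medians of -0.12 and -0.15, inside a wider distribution whose medians are 0.12 and 0.11.

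Array by array, each gene was set against its own mean at 0 h and the median over the 38 members was taken. It was -0.02, -0.10, 0.05 and 0.06 at 0 h, -0.16, -0.20, 0.01 and -0.17 at 48 h, and -0.17, -0.11 and -0.15 at 96 h. The 3 arrays at 96 h were below the lowest 0 h array, 1 of them only just, while replicate 3 at 48 h lay among the 0 h arrays. The same median over all genes lay between -0.01 and 0.02 at 0 h and between 0.07 and 0.14 on the 7 treated arrays.

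**Figure D2:**
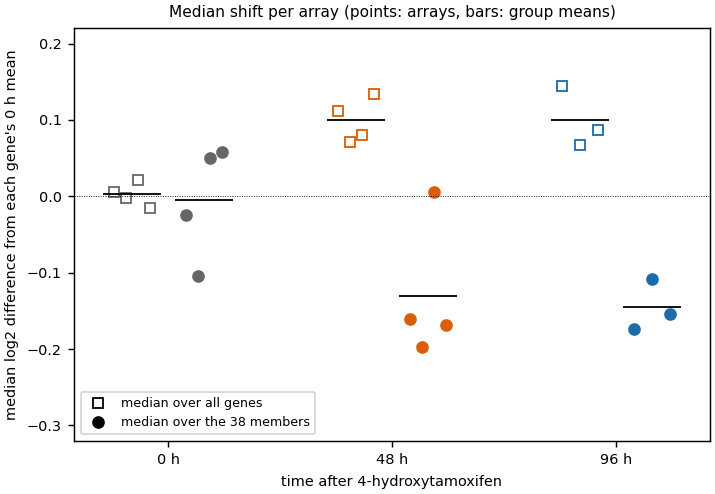
Median log2 difference from each gene's 0 h mean, per array, over all genes (open squares) and over the 38 ribosome biogenesis factors (filled circles), with group means as bars, by time after 4-hydroxytamoxifen. The factors' medians lie between -0.20 and 0.01 on the treated arrays, and those of all genes between 0.07 and 0.14.

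The counts of members called rested on single arrays. At 48 h, 5 members were lower with all arrays, but 0 without 0 h replicate 3 or without 48 h replicate 1. The count was 1 without 0 h replicate 4 or 48 h replicate 4, 2 without 0 h replicate 1 or 48 h replicate 2, and 3 without 48 h replicate 3 or 96 h replicate 1. Nop10 was no longer called without 0 h replicate 1, 3 or 4, or without 48 h replicate 1, 3 or 4. At 96 h, 3 members were lower with all arrays, 6 without 0 h replicate 2, 1 without 0 h replicate 3 or 4 or 96 h replicate 1, and 0 without 96 h replicate 2 or 3. The share of all genes called lower moved as well, from 4.21% to 9.81% at 48 h and from 0.881% to 5.32% at 96 h over the 11 left-out arrays. Scaling moved the counts as well. With the authors' deposited table of quantile-normalized values, 2 members were higher and 10 lower at 48 h, and 1 higher and 6 lower at 96 h. These are 31.6% and 18.4% of the members, in fits that called 19.5% and 10.6% of all genes. With the 75th percentile taken over bright probes alone, 2 were higher and 3 lower at 48 h, in a fit that called 14.5% of all genes higher and 6.87% lower.

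The small subunit processome holds the members that were lower at both times. This is the large particle that forms on the nascent precursor and cleaves out the small subunit rRNA. Of its 11 members here, 3 were lower at 48 h and the same 3 at 96 h, beside 8.03% and 3.38% of all genes called lower. Its medians were -0.21 and -0.27, with 10 and 9 members below 0, beside 38.5% and 38.9% of all genes below 0. Other small subunit factors, which are not among the 38, had medians of -0.11 and -0.04, with 18 and 17 of 31 below 0. Of those, 2 were higher and 3 lower at 48 h, and 0 were higher and 5 lower at 96 h. Over all genes 10.5% and 6.18% were called higher at these times.

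Wdr43, a WD-repeat protein of the processome, was at 4.17, 3.87, 4.28 and 4.20 at 0 h, at 3.61, 3.64, 3.79 and 3.68 at 48 h, and at 3.75, 3.63 and 3.59 at 96 h. All treated arrays lay below all untreated ones. Beside such a gap, 9.82% of all genes at 48 h and 8.69% at 96 h had groups that did not overlap and were lower. Wdr43 fell by 0.45 at 48 h (SE 0.105, adjusted p = 0.0185) and was at -0.47 at 96 h (SE 0.114, adjusted p = 0.0325), so that 73.3% and 72.1% of the 0 h signal remained. It did not differ beyond the error between 48 h and 96 h (-0.03, adjusted p = 0.910). The other Wdr43 probe gave -0.52 and -0.46, and both passed the test over all probes. The Wdr43 call at 48 h was kept in 20 of 24 alternative settings and the call at 96 h in 14 of 23.

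Rrp9, a protein of the U3 snoRNP within the processome, was at 2.80, 2.78, 2.79 and 2.74 at 0 h, at 2.47, 2.46, 2.5 and 2.52 at 48 h, and at 2.41, 2.38 and 2.34 at 96 h. The 3 groups did not overlap, in the order 0 h, 48 h, 96 h. Rrp9 was lower at 48 h (-0.29, SE 0.0716, adjusted p = 0.0219) and at 96 h (-0.40, SE 0.0774, adjusted p = 0.0169). The step from 48 h to 96 h did not pass (-0.11, adjusted p = 0.393), and 13.6% of all genes had groups apart and lower there. The Rrp9 calls were kept in 16 of 24 and 18 of 23 alternative settings.

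Imp4, which with Imp3 helps the U3 snoRNA pair with the precursor, was at 4.40, 4.49, 4.71 and 4.58 at 0 h, at 4.34, 4.13, 4.26 and 4.26 at 48 h, and at 4.11, 4.07 and 4.11 at 96 h. Its groups did not overlap either, although 0 h and 48 h were separated by less than 0.1. Imp4 was at -0.30 at 48 h (SE 0.0928, adjusted p = 0.0497), a call kept in 6 of 24 alternative settings and lost with the replicate block (adjusted p = 0.0616). At 96 h it was at -0.45 (SE 0.10, adjusted p = 0.0269), kept in 15 of 23. Its partner Imp3 did not pass, with differences of -0.12 and -0.27, but passed as lower at 96 h with the replicate block (-0.34, adjusted p = 0.0426).

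The sequences upstream of these 3 genes are shown because the genes were the members called lower at both times. Each run is the 250 bases before the RefSeq start on the gene's own strand in GRCm38.p6, at chr17:71615965-71616214 for Wdr43, chr1:34439579-34439828 for Imp4 and chr9:106477059-106477308 for Rrp9, all on the plus strand. Capitals mark the letters CACGTG, which only the Imp4 stretch holds.
Wdr43: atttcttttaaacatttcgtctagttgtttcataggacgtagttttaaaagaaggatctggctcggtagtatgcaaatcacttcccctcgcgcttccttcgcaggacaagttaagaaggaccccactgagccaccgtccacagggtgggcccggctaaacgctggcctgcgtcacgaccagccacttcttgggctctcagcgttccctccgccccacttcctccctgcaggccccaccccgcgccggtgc
Imp4: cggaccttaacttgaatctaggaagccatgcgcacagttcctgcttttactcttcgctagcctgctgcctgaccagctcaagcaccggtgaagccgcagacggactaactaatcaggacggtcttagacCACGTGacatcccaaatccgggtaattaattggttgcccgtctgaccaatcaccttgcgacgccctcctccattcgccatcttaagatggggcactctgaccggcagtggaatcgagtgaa
Rrp9: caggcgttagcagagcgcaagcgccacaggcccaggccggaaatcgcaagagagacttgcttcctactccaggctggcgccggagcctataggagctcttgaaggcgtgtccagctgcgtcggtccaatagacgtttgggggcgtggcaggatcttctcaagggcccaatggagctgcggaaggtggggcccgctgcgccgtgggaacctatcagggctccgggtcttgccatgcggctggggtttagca

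The other 8 processome members did not pass in any comparison, and of these only Imp3 at 96 h passed with the replicate block. Utp15, part of the subcomplex that binds the precursor first, had differences of -0.21 and -0.22, with treated arrays below untreated ones both times (adjusted p = 0.0931 and 0.121). Wdr36 had -0.24 and -0.35 on its brighter probe (adjusted p = 0.111 and 0.0659), and its other probe had -0.32 and -0.42 and passed over all probes both times. Wdr75, which belongs with Wdr43 and Utp15 to the same early subcomplex, had -0.11 and -0.31. Heatr1, a helical-repeat protein also counted in that subcomplex, had -0.30 and -0.22. Nop14 had -0.14 and -0.16, and the WD-repeat protein Wdr3 -0.20 and 0.06. Utp20, a long helical-repeat scaffold, was the only processome member above 0 at both times, at 0.06 and 0.25.

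**Figure D3:**
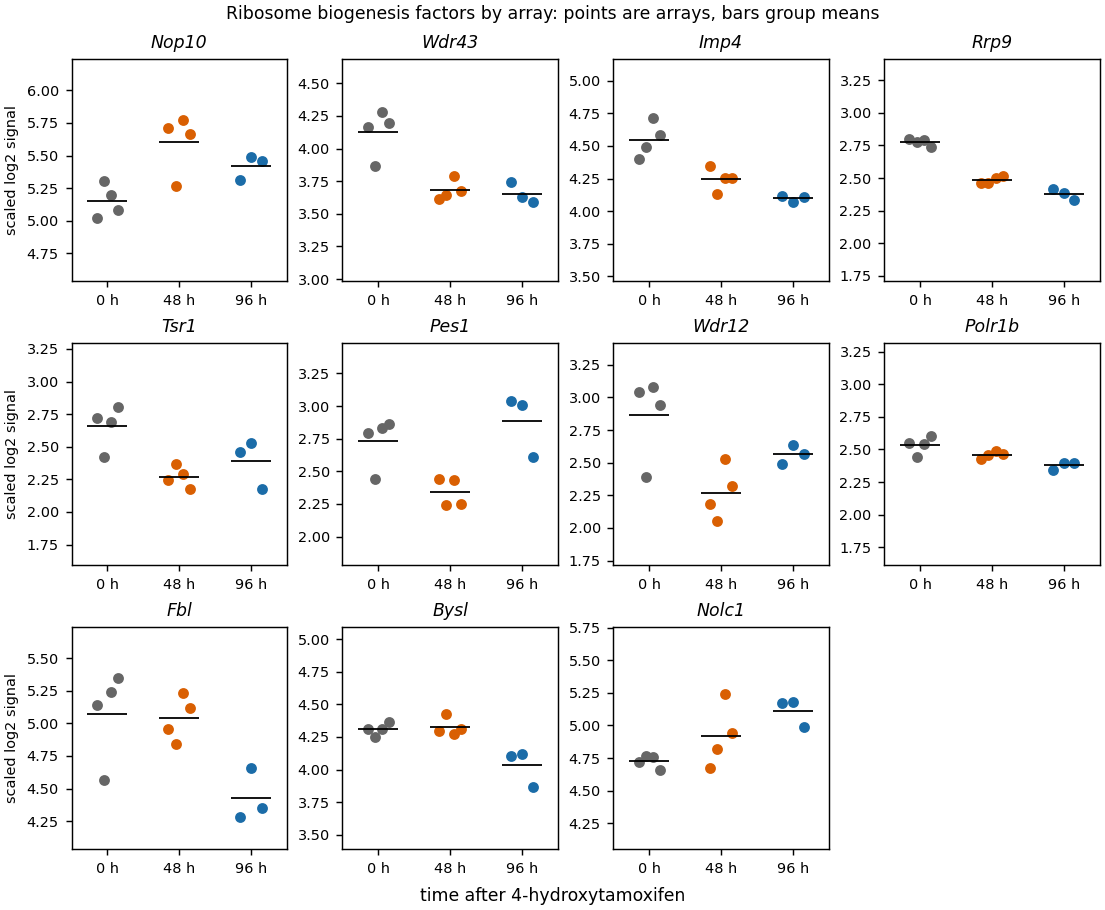
Scaled log2 signal on each of the 11 arrays for the 11 members named by rule, with 1 panel a gene, arrays as points and group means as bars, by hours after 4-hydroxytamoxifen, over the same log2 span at different levels. Wdr43, Imp4 and Rrp9 have all treated arrays below all untreated ones, and Bysl has its lowest values at 96 h.

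Factors of late small subunit maturation gave 1 call. Tsr1, a GTPase-like factor of late small subunit precursors, was at 2.72, 2.42, 2.69 and 2.80 at 0 h, at 2.25, 2.37, 2.29 and 2.18 at 48 h, and at 2.46, 2.53 and 2.18 at 96 h. The 48 h arrays were all below the 0 h arrays, and those at 96 h overlapped both. Tsr1 was at -0.39 at 48 h (SE 0.115, adjusted p = 0.0421) and -0.27 at 96 h (adjusted p = 0.188). Its other probe had -0.46 at 48 h and passed over all probes, and the 48 h call was kept in 6 of 24 alternative settings and lost with the replicate block (adjusted p = 0.0604). Bysl, a small subunit assembly factor, was at 4.31, 4.25, 4.31 and 4.36 at 0 h, at 4.29, 4.42, 4.27 and 4.31 at 48 h, and at 4.11, 4.12 and 3.87 at 96 h. Its 96 h arrays lay below all others, with a difference of -0.28 from 0 h (adjusted p = 0.0882) and -0.29 from 48 h (adjusted p = 0.0743). Ltv1, a small subunit assembly factor, had -0.22 and -0.07, and Rrp12, which aids export, had 0.20 and 0.15.

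The large subunit group had 9 members, 1 of them lower at 48 h and none called at 96 h against 0 h (2 lower and 0 higher at an unadjusted p under 0.05). Wdr12, Pes1 and Bop1 form the PeBoW complex, which processes the precursor of the large subunit. Wdr12 was at 3.04, 2.39, 3.08 and 2.94 at 0 h, at 2.18, 2.05, 2.53 and 2.32 at 48 h, and at 2.49, 2.63 and 2.57 at 96 h. Replicate 2 at 0 h was as low as the 48 h arrays, so the groups overlapped. Wdr12 had the lowest difference of all members at 48 h (-0.59, SE 0.163, adjusted p = 0.0315), kept in 15 of 24 alternative settings, and -0.30 at 96 h (adjusted p = 0.286).

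Pes1 was at 2.80, 2.44, 2.83 and 2.86 at 0 h, at 2.44, 2.24, 2.44 and 2.25 at 48 h, and at 3.04, 3.01 and 2.61 at 96 h. The 96 h arrays were all above the 48 h arrays, beside 14.2% of all genes apart and higher there. Pes1 was at -0.39 at 48 h (adjusted p = 0.0683, or 0.0447 with the replicate block), at 0.15 at 96 h (adjusted p = 0.514), and rose by 0.54 between them (SE 0.145, adjusted p = 0.0399). The other Pes1 probe did not share this, with 0.02, -0.23 and -0.25 in the 3 comparisons. The rise was kept in 9 of 23 alternative settings and was lost when any 1 of these arrays was left out: 0 h replicate 1, 3 or 4, any 48 h array, and 96 h replicate 1 or 2. Bop1 had -0.05 and -0.15.

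The other large subunit members did not pass, with or without the replicate block. Nop2, an rRNA methyltransferase, had -0.08 and -0.28, Nop16 -0.08 and -0.25, and Rrs1, which brings the ribosomal RNP that holds the 5S rRNA, -0.12 and -0.23. In these 3 genes the 96 h arrays were all below the 0 h arrays. Rrp1b had 0.33 at 48 h and -0.14 at 96 h, and its 96 h arrays were all below the 48 h arrays (-0.47, adjusted p = 0.0557). Noc2l had -0.15 and 0.08, and the nucleolar GTPase Gnl3, or nucleostemin, 0.06 and -0.07.

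Of the 4 core proteins of the box H/ACA RNPs, which carry out pseudouridylation, 1 was called, at 48 h. Nop10, the smallest H/ACA core protein, was at 5.02, 5.30, 5.20 and 5.08 at 0 h, at 5.71, 5.27, 5.77 and 5.67 at 48 h, and at 5.31, 5.49 and 5.46 at 96 h. At 48 h 3 arrays were above all others and replicate 2 was not, so the groups overlapped. Nop10 rose by 0.45 at 48 h (SE 0.126, adjusted p = 0.0327), kept in 12 of 24 alternative settings, and was at 0.27 at 96 h (adjusted p = 0.219). Nhp2, another core protein, had 0.30 and -0.03 and was the only member whose 48 h arrays were all above those at 0 h, beside 14.1% of all genes. The pseudouridine synthase Dkc1 had -0.20 and 0.02 and Gar1 -0.24 and -0.05.

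Of the 3 box C/D core proteins limma called 0 in each comparison, with 1, 2 and 1 lower at an unadjusted p under 0.05 at 48 h, at 96 h and between them. Fbl, the methyltransferase fibrillarin, was at 5.14, 4.56, 5.24 and 5.35 at 0 h, at 4.96, 4.84, 5.23 and 5.12 at 48 h, and at 4.28, 4.66 and 4.35 at 96 h. The 96 h arrays were low, but replicate 2 at 0 h lay among them. Fbl was at -0.03 at 48 h, -0.64 at 96 h (SE 0.191, adjusted p = 0.0598) and -0.61 between them (adjusted p = 0.0671). Without 0 h replicate 2 the difference at 96 h passed, with an adjusted p of 0.0108, and with the replicate block it passed at 0.0171, as did the difference from 48 h at 0.0188. Nop58 had -0.42 and -0.44 (adjusted p = 0.0536 and 0.0830), and with the replicate block it passed as lower both times (-0.42 and -0.52, adjusted p = 0.0300 and 0.0301). Its partner Nop56 had -0.12 and -0.03.

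Neither RNA polymerase I subunit was called, and none had an unadjusted p under 0.05. Polr1b, its second-largest subunit, was at 2.55, 2.44, 2.54 and 2.60 at 0 h, at 2.43, 2.46, 2.49 and 2.46 at 48 h, and at 2.34, 2.40 and 2.40 at 96 h. The 96 h arrays were all lowest, by a small step of -0.15 from 0 h (SE 0.0809, adjusted p = 0.241). The largest subunit, Polr1a, had -0.15 and -0.07.

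Of 5 nucleolar chaperones and regulators limma called 0 in each comparison, with 1 higher and 1 lower at an unadjusted p under 0.05 at each treated time. Nolc1, a chaperone of small nucleolar RNPs, was at 4.72, 4.77, 4.76 and 4.66 at 0 h, at 4.67, 4.82, 5.24 and 4.94 at 48 h, and at 5.17, 5.18 and 4.99 at 96 h. Its 96 h arrays were all above the 0 h arrays, beside 16.4% of all genes, with a difference of 0.39 (SE 0.132, adjusted p = 0.0877). Its 2 probes disagreed at 48 h, at 0.19 and -0.37, and only the dimmer of them passed over all probes between 48 h and 96 h, at 0.57. The abundant nucleolar protein nucleolin, Ncl, had 0.23 and 0.21 on its brighter probe and -0.08 and -0.33 on the other. Npm1, or nucleophosmin, had -0.12 and -0.33, passed as lower at 96 h with the replicate block (-0.39, adjusted p = 0.0300), and all 5 of its probes were below 0 at 96 h. The helicase Ddx21 had -0.28 and -0.08 and Mybbp1a -0.07 and 0.08.

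Counted over all 38 members, groups did not overlap for 1 higher and 5 lower at 48 h, 3 higher and 14 lower at 96 h, and 3 higher and 10 lower between 48 h and 96 h. The shares among all genes in the same order were 14.1% and 9.82%, 16.4% and 8.69%, and 14.2% and 13.6%.

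**Figure D4:**
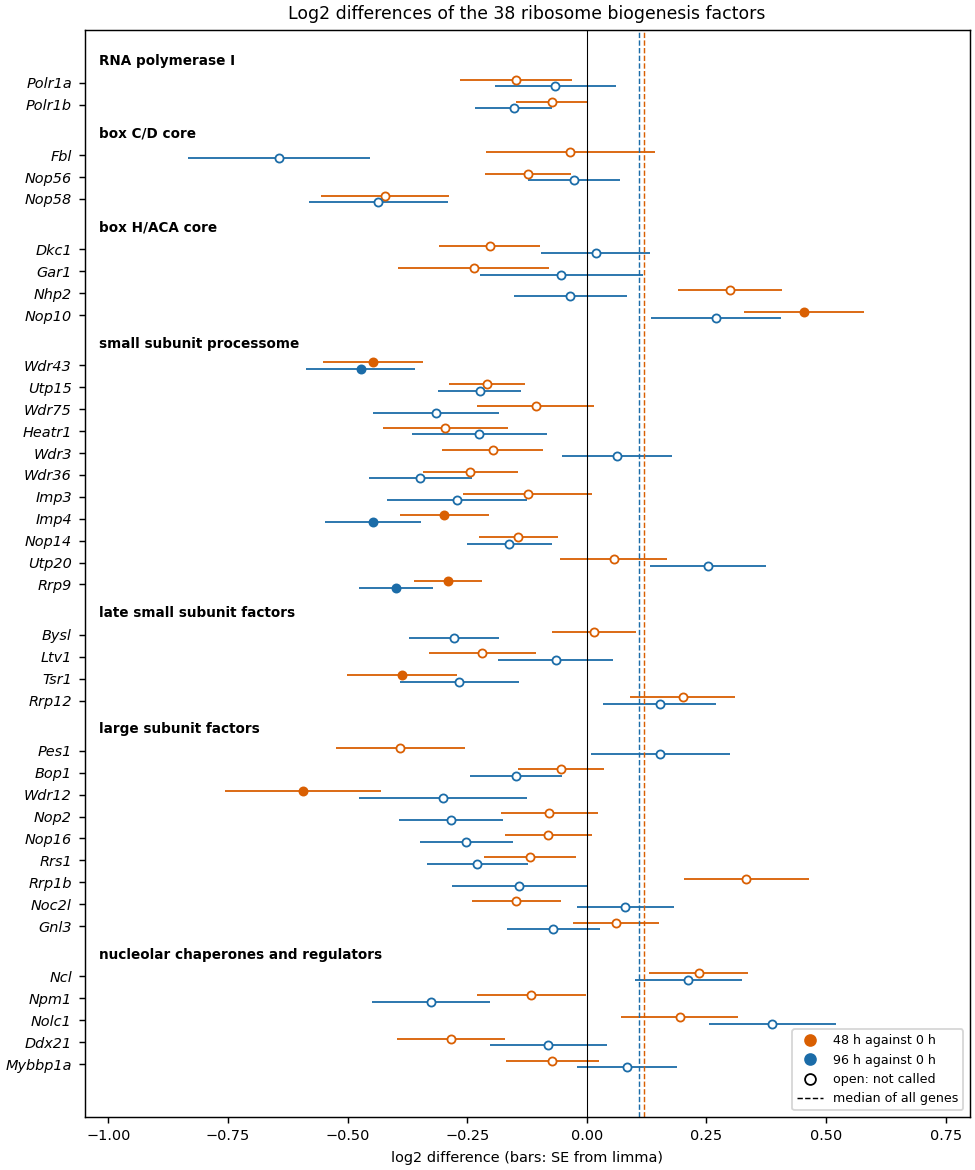
Log2 difference from 0 h of each of the 38 members by role, at 48 h (orange) and 96 h (blue), with limma's standard error as bars, filled where called and open where not, and dashed lines at the median of all genes. Filled points are 6 at 48 h and 3 at 96 h, and the small subunit processome holds 3 of each.

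Other genes of the pathway, which are not among the 38, were counted in the same fit. Of 79 tested, 7 were higher and 11 lower at 48 h, or 22.8%, and 2 were higher and 13 lower at 96 h, or 19.0%. Between 48 h and 96 h 1 was higher and 5 lower, or 7.59%. The shares of all genes called were 18.6%, 9.56% and 11.1% in the same order. The lower calls were 13.9%, 16.5% and 6.33% of the 79, beside 8.03%, 3.38% and 5.95% of all genes. Among 13 genes of the RNA polymerase I machinery, Znrd1, a small subunit of the enzyme, fell to 61.5% of the 0 h signal at 48 h (-0.70, adjusted p = 0.00500) and 47.8% at 96 h (-1.07, adjusted p = 0.00372). Taf1a, of its promoter selectivity factor, rose by 0.79 (adjusted p = 0.00269) and 0.53 (adjusted p = 0.0259). Ubtf, of the same machinery, was counted as lower on its brighter probe (-0.44 and -0.50). Its other probe had 0.70 at 48 h, which passed over all probes (limma adjusted p = 0.00401), and 0.40 at 96 h, which did not (0.0549). The kinase Riok2 and the large subunit factor Nle1 were lower at 48 h by limma, at -0.76 and -0.61, and Rrp7a and Rrp1 were higher, at 0.72 and 0.58. At 96 h the nuclease Nob1 (-0.58) and the processome protein Utp4 (-0.54) were lower, and Rrp1 (0.47) was higher. Between the treated times Nifk (-0.49), Rrn3 (-0.42) and Utp6 (-0.44) were lower and Rrp36 (0.35) was higher. Without 1 array the pathway counts ranged from 10 to 18, 4 to 18 and 0 to 6 in the 3 comparisons, with 11 at 48 h without 0 h replicate 3 and 10 without 0 h replicate 4. At 96 h the count was 6 without 0 h replicate 1, 5 without 96 h replicate 1 or 3, and 4 without 0 h replicate 3 or 4 or 96 h replicate 2. Between the treated times, leaving out replicate 1 of either the 0 h or the 48 h group gave 3, leaving out 48 h replicate 4 or 96 h replicate 3 gave 1, and leaving out 96 h replicate 1 gave 0.

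Myc itself was at 3.99, 3.54, 4.16 and 4.09 at 0 h, at 2.97, 2.84, 3.66 and 3.36 at 48 h, and at 4.00, 3.83 and 3.95 at 96 h. It was low at 48 h alone, where replicate 3 overlapped 0 h replicate 2. Myc fell by 0.73 at 48 h (SE 0.194, adjusted p = 0.0274), was at -0.02 at 96 h (adjusted p = 0.962), and had 0.72 between them (adjusted p = 0.0538). Wdr43, Imp4 and Rrp9 were lower at both times. Whether Myc and the members are linked was not tested.

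The E-box letters CACGTG, which MYC with MAX is known to bind, were searched in RefSeq promoters of GRCm38.p6, from 250 bases before to 50 after each start. The motif reads the same on both strands. Promoters were found for 32 of the 38 members, and those without an entry were Fbl, Wdr36, Rrp12, Bop1, Rrs1 and Npm1. The letters occurred in 8 of 36 member promoters, or 22.2%, beside 7.15% of all 32851 promoters and 7.84% of the 21263 of protein-coding genes. The 8 genes include Wdr43, Imp4, Tsr1 and Pes1 among those called in some comparison, and Rrp9, Wdr12 and Nop10 had no match in this window. A match describes the letters and shows no binding. The sites are shown as 30 bases each, with the motif in capitals: Imp4 at chr1:34439696-34439725 (plus strand), Nop2 at chr6:125131811-125131840 (plus strand), Pes1 at chr11:3963965-3963994 (plus strand), Wdr43 at chr17:71616220-71616249 (plus strand), Tsr1 at chr11:74898092-74898121 (plus strand), Ltv1 at chr10:13193092-13193121 (minus strand), Utp20 at chr10:88826765-88826794 (minus strand), Mybbp1a at chr11:72441347-72441376 (plus strand).
Imp4: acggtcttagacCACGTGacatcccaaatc
Nop2: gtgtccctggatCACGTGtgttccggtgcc
Pes1: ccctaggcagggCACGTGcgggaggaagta
Wdr43: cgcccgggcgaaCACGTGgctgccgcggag
Tsr1: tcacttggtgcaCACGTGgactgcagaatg
Ltv1: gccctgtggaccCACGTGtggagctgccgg
Utp20: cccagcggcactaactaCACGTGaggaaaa
Mybbp1a: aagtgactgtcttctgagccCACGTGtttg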

How the data were processed

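RNA of 11 samples was measured, 1 array each. Agilent Feature Extraction 11.0.1.1 made the scanner files, per the file headers. Its deposited processed signal is a spot intensity, background-subtracted and detrended inside each array, with no normalization across arrays. The deposited median spot and background intensities are unnormalized, and other deposited columns are flags of 0 or 1 per spot. A series-wide table deposited by the authors gives log2 values, for which the submitters' processing notes name limma. A normexp correction (offset 50) and quantile normalization, rerun on the scanner values, correlated with every column at 0.99998 or more, without gene centring.

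Of 62976 spots per array, 59305 were not controls. Outlier-flagged spots (125 to 194 per array) were left out and 0 were saturated. The 75th percentile of each array was subtracted from its log2 processed signals, and the result was averaged over spots of a probe. Accessions were matched, without versions, to RefSeq genes of GRCm38.p6, which named 27656 of 55681 probes and gave 0 probes several symbols. Probes well above background on at least 3 arrays were kept (34269), and the brightest probe stood for a gene. limma 3.58.1 (lmFit, eBayes, 2-sided, R 4.3.3, data.table package version 1.17.8) was fitted to the 3 groups together, leaving 8 residual degrees of freedom. P-values were adjusted by Benjamini-Hochberg over 25079 features, with calls at an adjusted p under 0.05. The code was tested on simulated data. Figures used Python 3.11.15, numpy 2.4.6, pandas 2.3.3 and matplotlib 3.10.9. The number of arrays limits the precision.

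A member has its value on every array in the text if it was called in any comparison, is Wdr43 or Rrp9, or has the largest absolute difference at 96 h in its role group. Of the other pathway genes, up to 3 per direction and comparison with the smallest adjusted p are named, and Ubtf is added because its probes disagreed. The members and lists were chosen with earlier results of these data known. Same-numbered 0 h and 48 h arrays deviated together (correlations over genes of 0.14 to 0.28). Arrays of unlike number had -0.25 to 0.17, so the ranges overlapped. At 96 h the title numbers did not pair the arrays with 0 h (-0.04 to 0.36). The numbers in the file names gave 0.115 to 0.36, beside -0.24 to 0.114 for unlike numbers, so these ranges nearly met. Every file name number equals the array's column on its slide. A shared line and a shared slide column therefore cannot be told apart.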

Additional observations from a re-analysis of the deposited data

Results flagged for a closer look

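3 of the 78 groups of 4 arrays examined held an array that stood apart from the other 3, where chance gives about 1 in 20. For Polr1a, 0 h replicate 4 was at 3.86 and the others between 3.62 and 3.65. For Nhp2, 0 h replicate 1 was at 7.42 and the others between 7.63 and 7.66. For Pes1, 0 h replicate 2 was at 2.44 and the others between 2.80 and 2.86, and without that array the Pes1 difference at 48 h passed, with an adjusted p of 0.0238 by limma.

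The Pes1 effects at 48 h and at 96 h, both taken against 0 h, differed by 0.54 (adjusted p = 0.0399 by limma), which is the test of the difference itself. The second Pes1 probe had -0.25 for the same difference.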

How the results depend on the processing

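Every member count depended on at least 1 setting, and the cause was not tested unless the setting's own construction shows it. Members called higher and lower at 48 h numbered 1 and 5 as reported. Quantile normalization gave 0 higher. They were 0 and 2 with median scaling, 2 and 3 with the percentile over bright probes, 2 and 10 with normexp or the deposited table, 0 and 1 with no filter, 0 and 2 with only the compared groups fitted, and 0 and 0 with slide row as a term. Left-out arrays gave 0 to 2 and 0 to 7. All genes called lower at 48 h were 8.03% as reported, 7.7% with median scaling and 6.87% with the percentile over bright probes. They were 10.8% with normexp, 10.7% with the deposited table, 3.13% with no filter and 6.41% with only the compared groups. With slide row 11.3% of all genes were called in either direction. All genes called higher ranged from 1.69% (median scaling) to 14.5% (percentile over bright probes) over these settings, beside 10.5% as reported. At 96 h against 0 h, 0 and 3 became 9 lower with median scaling, 1 higher with the percentile over bright probes, 1 and 7 with normexp, 1 and 6 with the deposited table, 0 lower with no filter or only the compared groups, 5 lower with the strict filter and 6 with array weights. Left-out arrays gave 0 to 1 and 0 to 6. All genes called lower were 3.38% as reported, 9.28% with median scaling, 3.34% with the percentile over bright probes, 5.16% with normexp and 5.12% with the deposited table. They were 0.695% with no filter, 0.423% with only the compared groups, 5.95% with the strict filter and 4.79% with array weights. All genes called higher were 0.921% (median scaling) to 8.74% (strict filter) over these settings. At 96 h against 48 h, 1 and 0 became 0 higher with median scaling, no filter, mean of probes or only the compared groups. It became 1 lower with quantile normalization or only the compared groups, 3 lower with the percentile over bright probes, 2 and 3 with normexp or the deposited table, and 2 lower with the strict filter. Left-out arrays gave 0 to 1 for both. All genes called lower at 96 h against 48 h were 5.95% as reported, 5.79% with quantile normalization and 4.33% with only the compared groups. They were 7.04% with the percentile over bright probes, 6.06% with normexp, 6.04% with the deposited table and 9.29% with the strict filter. All genes called higher ranged from 0.630% (median scaling) to 7.75% (strict filter) over these settings.

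With the replicate number as a block, pairing by file name numbers, 1 higher and 5 lower remained the counts at 48 h, where Imp4 (adjusted p = 0.0616) and Tsr1 (0.0604) were lost and Pes1 (0.0447) and Nop58 (0.0300) were gained. At 96 h this block gave 7 lower, with Fbl (0.0171), Nop58 (0.0301), Imp3 (0.0426) and Npm1 (0.0300) gained, and 1 lower against 48 h, also Fbl (0.0188). The block called 9.23%, 5.45% and 6.28% of all genes lower in the 3 comparisons. Cell type markers called became 9 and 10 at 48 h and 96 h, and other pathway genes 10 between them. The block by title numbers, which did not pair the 96 h arrays, gave 0 and 2 at 48 h, 0 lower at 96 h, 0 higher between, and 5 and 0 other pathway genes at 96 h against 0 h and 48 h. With title numbers 6.73% of all genes were called lower at 48 h, 1.76% lower at 96 h and 3.09% higher between.

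The members' median moved with median scaling to -0.35, -0.54 and -0.18 in the 3 comparisons, where the medians of all genes were -0.10, -0.28 and -0.13. Relative to all genes, the members' median was -0.24 at 48 h and -0.26 at 96 h as reported. It was -0.15 and -0.15 with quantile normalization, -0.12 at 96 h with normexp or the deposited table, and -0.35 at 48 h with no filter. Left-out arrays gave -0.18 to -0.11, -0.17 to -0.13 and -0.06 to 0.00 for the median.

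Other pathway genes called were 18, 15 and 6 as reported. They were 7 at 48 h and 0 between treated times with median scaling, 11 at 48 h with slide row, 4 at 96 h and 0 between with no filter, and 2 and 2 with only the compared groups. Between treated times they were 13 with the percentile over bright probes, normexp or the deposited table, 14 with the strict filter and 10 with array weights. Left-out arrays gave 10 to 18, 4 to 18 and 0 to 6. All genes called ranged from 9.76% to 21.7%, 2.80% to 13.1% and 3.94% to 11.8% over the left-out arrays. Over the other settings they ranged from 7.17% to 27.1%, 1.73% to 14.7% and 3.67% to 17.0%. Cell type markers called were 4 and 6 at 48 h and 96 h, 7 at 48 h with array weights, and 4 to 7 and 4 to 8 without 1 array. Floxed genes called between treated times were 1 with normexp or the deposited table.

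Sign changes were followed only for the members whose value on every array is given. Other members also changed sign, as the number below 0 moved with the scaling. Among the members followed, differences that changed sign were all uncalled on both sides of the change. With median scaling these were Bysl at 48 h (-0.21), Nolc1 at 48 h (-0.030), Nop10 at 96 h (-0.12), Pes1 at 96 h (-0.23) and Tsr1 between treated times (-0.042). Fbl at 48 h was 0.029 with the percentile over bright probes and -0.20 to 0.057 without 1 array, above 0 without 0 h replicate 3 or 4 or 48 h replicate 2. Wdr43 between treated times was 0.021 with normexp or the deposited table, 0.017 with the mean of probes, and -0.071 to 0.011 without 1 array, above 0 without 48 h or 96 h replicate 3. With the mean of probes Nolc1 was -0.090 at 48 h and Pes1 -0.038 at 96 h. Bysl at 48 h was -0.017 to 0.033 without 1 array, below 0 without 0 h or 48 h replicate 2.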
